A study of Mus musculus with 2 samples.

Results

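Gpi1 and Acaa2 are nuclear genes for enzymes of energy metabolism, and this account follows their RNA in BV-2 cells after oxygen and glucose deprivation. They were taken by probe name, A_51_P426886 for Gpi1 (transcript NM_008155) and A_51_P125260 for Acaa2 (transcript NM_177470), and make up 2 of the 50 gene probes on the arrays, which also carry 14400 small-RNA probes. BV-2 is an immortalised mouse microglial cell line. The OGD/R array came from BV-2 cells kept for 2 h without glucose, serum and oxygen, in 5% CO2 and 95% N2 at 37 °C, and then returned to regular medium and normal oxygen. The control array came from BV-2 cells in regular culture, also in 5% CO2 at 37 °C. On both arrays Cy5 labelled the modified RNA eluted after immunoprecipitation (IP), and Cy3 labelled the RNA without the modification, recovered from the supernatant (Sup). The sources used here do not say which modification the antibody binds, how long the cells recovered, or whether dishes were pooled. Each group has a single array, so the differences below have no replicate check and no test. The SDs are over repeat spots of 1 array and hold technical scatter within it only.

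Gpi1 encodes glucose-6-phosphate isomerase, which turns glucose 6-phosphate into fructose 6-phosphate early in glycolysis. The protein is also secreted and acts outside cells as autocrine motility factor, or neuroleukin. Acaa2 encodes a mitochondrial 3-ketoacyl-CoA thiolase, which cuts acetyl-CoA from the acyl chain in the last step of a round of fatty acid beta-oxidation. Glycolysis runs in the cytosol and can make ATP without oxygen, whereas beta-oxidation takes place in mitochondria and depends on respiration. Microglia use both fuels and rely more on glycolysis when activated.

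The question put to each gene was whether its RNA divided differently between IP and Sup after OGD/R. For both, the IP share was higher and the Sup signal lower on the OGD/R array, while the IP signal differed little. The IP/Sup ratio was 2.50-fold higher in OGD/R for Gpi1 and 2.25-fold higher for Acaa2, once each array was centred on its median ratio. The Sup signal of Gpi1 in OGD/R was 0.462 times that in control, and that of Acaa2 0.542 times. Both genes passed the 2-fold threshold for the ratio, which 4.27% of the 7470 RNAs well above background passed upward. Gpi1 stayed past it under 9 of 14 processing alternatives and Acaa2 under 8. Neither gene did under any alternative that left out the scanner software's dye normalization. With normexp background correction, which leaves out that step and adds an offset of 50, the 319 RNAs behind that share became 10. Which of these changes lowered the count was not tested. Among the 4909 RNAs with all channels of both arrays measured the share was 1.34%, and among the 34 gene probes of that set it was 26.5%. Among the 205 RNAs of that set with a total signal at least that of Acaa2, a group formed after the values were seen, it was 3.9%. The gene probes are therefore the comparison used below.

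Gpi1 was measured in 9 retained spots on the OGD/R array and 10 on the control array, and all of them were well above background in both channels. Its log2 Sup signal, dye-normalized by the scanner software, had a lowest, median and highest spot of 17.18, 17.23 and 17.27 in OGD/R, against 18.37, 18.41 and 18.44 in control. The Sup spots of the arrays lay far apart, with a gap many times the spread within either array. Such gaps in Sup were not counted over the other gene probes. Its log2 IP signal ran from 18.74 through a median of 18.84 to 18.85 in OGD/R, against 18.61, 18.72 and 18.75 in control. Before any scaling between arrays the IP spots overlapped, with the lowest OGD/R spot just under the highest control spot. After scaling each channel between arrays by its 75th percentile, the Sup signal differed by -1.11 on the log2 scale (spot SD 0.04) and the IP signal by 0.26 (spot SD 0.06). Scaled in this way, the IP difference was above 0 at 9 of 9 array positions, from 0.23 to 0.29. The centred log2 ratio averaged 1.90 ± 0.04 in OGD/R (SD, n = 9 spots) and 0.58 ± 0.03 in control (SD, n = 10 spots), a difference of 1.32 with a spot SD of 0.05.

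Acaa2 was measured in 9 retained spots on the OGD/R array and 8 on the control array, again all well above background in both channels. The lowest, median and highest log2 Sup spots were 13.37, 13.46 and 13.53 in OGD/R, against 14.36, 14.39 and 14.44 in control. As with Gpi1, no Sup spot of one array reached the range of the other. The log2 IP spots ran from 15.41 through a median of 15.43 to 15.49 in OGD/R, against 15.22, 15.24 and 15.27 in control. Here the IP spots, before scaling between arrays, did not overlap either, and those of OGD/R were the higher ones. How many other gene probes had such gaps in Sup or IP alone was not counted. The scaled Sup signal differed by -0.88 (spot SD 0.06) and the scaled IP signal by 0.34 (spot SD 0.03), so neither channel reached 2-fold alone. The centred log2 ratio averaged 2.30 ± 0.06 in OGD/R (SD, n = 9 spots) and 1.13 ± 0.02 in control (SD, n = 8 spots), a difference of 1.17 with a spot SD of 0.06.

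**Figure D1:**
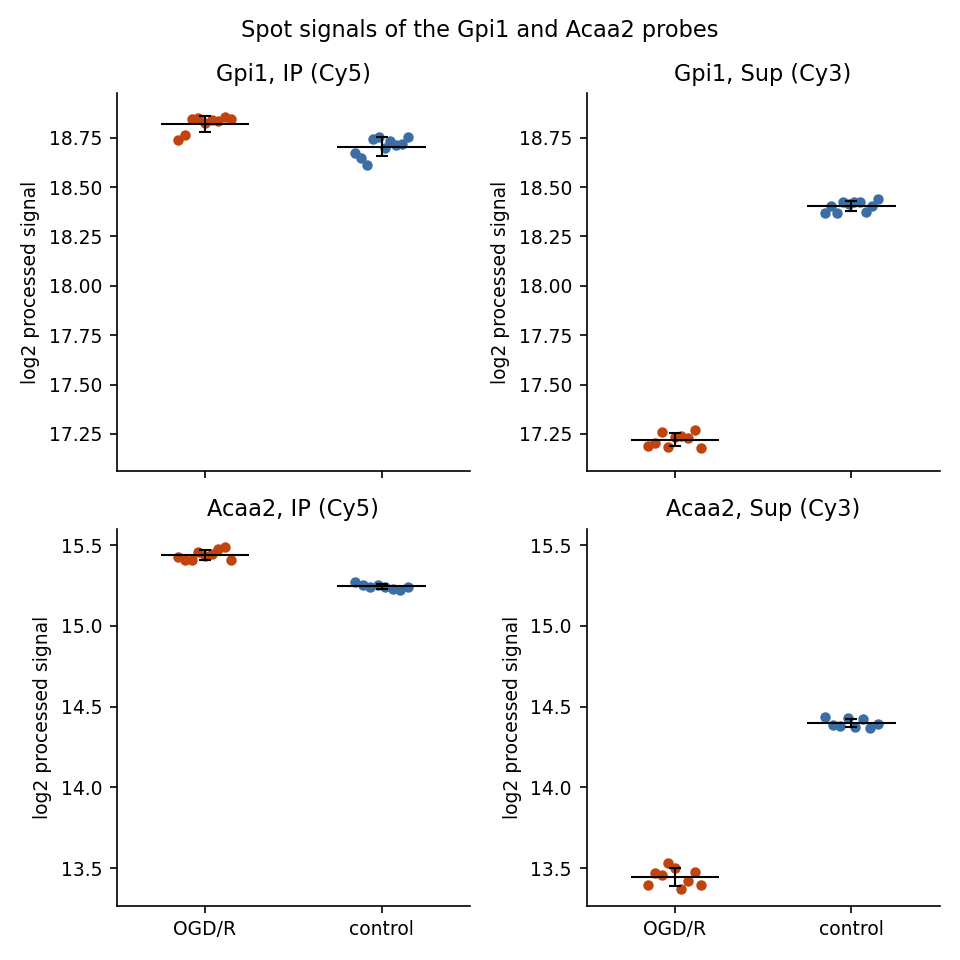
Log2 processed signal of each retained spot of the Gpi1 probe (top) and the Acaa2 probe (bottom) in IP (left) and Sup (right), with OGD/R left of control in each panel. Bars are means and SDs over spots of 1 array. The Sup spots of OGD/R sit about 1 log2 unit below those of control for both genes, and the IP spots differ by much less.

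The same array position was retained on both arrays for 9 Gpi1 spots and 8 Acaa2 spots. The ratio was higher in OGD/R at 9 of 9 positions for Gpi1, with differences from 1.29 to 1.38, and at 8 of 8 for Acaa2, with differences from 1.09 to 1.27. The direction was thus the same wherever on the array either probe lay. For Gpi1 the retained spots in rows up to 96 gave a difference of 1.31 and those in later rows 1.32. For Acaa2 these rows gave 1.14 and 1.20. The scanner software had marked 1 Gpi1 spot on the OGD/R array, 1 Acaa2 spot on the OGD/R array and 2 Acaa2 spots on the control array as outliers, and these were left out. The marked Gpi1 spot had a centred log2 ratio of 1.98, above all retained control spots. The marked Acaa2 spots had 2.37 in OGD/R, against 1.19 and 1.18 in control. With them kept, the differences were 1.33 for Gpi1 and 1.17 for Acaa2.

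Expressed as a share of the summed signal, IP held 75.2% ± 0.520 of Gpi1 in OGD/R (SD, n = 9 spots) and 55.2% ± 0.594 in control (SD, n = 10 spots). For Acaa2 the IP share was 79.9% ± 0.637 in OGD/R (SD, n = 9 spots) and 64.2% ± 0.338 in control (SD, n = 8 spots). These shares come from dye-normalized signals without centring. Since that step rescales each dye by signal level, they are no absolute fraction of modified RNA. Before it, the IP share of Gpi1 was 81.9% ± 0.579 in OGD/R and 70.0% ± 0.659 in control, from the same spots. That of Acaa2 was 68.3% ± 0.806 in OGD/R and 51.8% ± 0.525 in control. The share was higher in OGD/R on either scale for both genes.

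**Figure D2:**
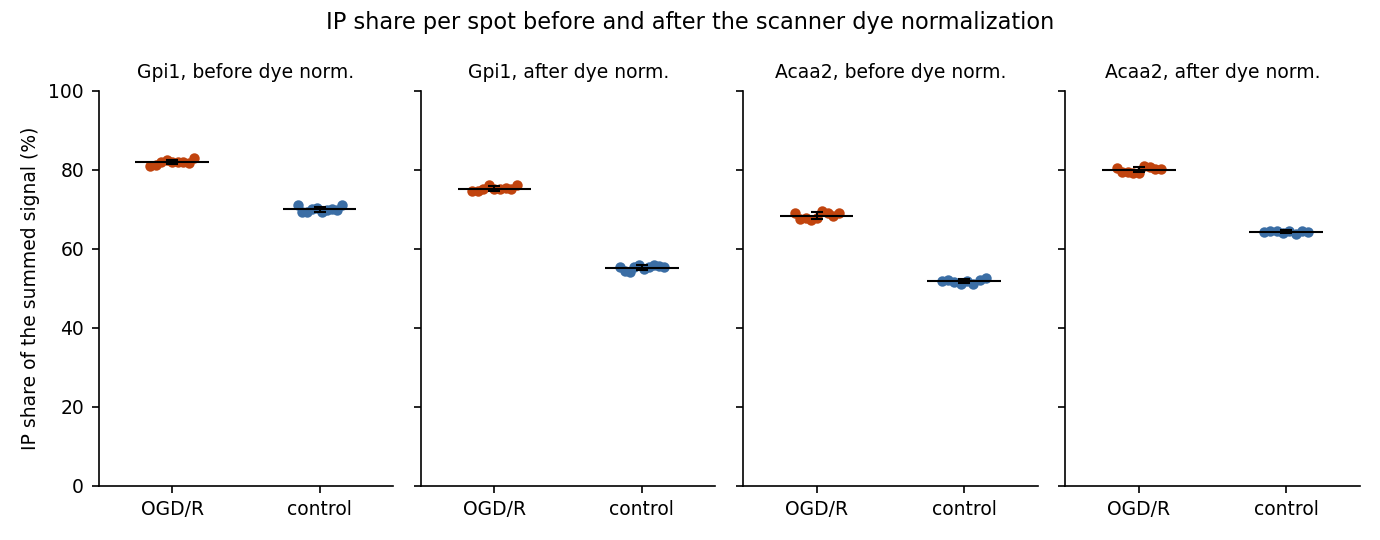
IP share of the summed IP and Sup signal (%) for each retained spot of Gpi1 (left pair of panels) and Acaa2 (right pair), before and after the scanner's dye normalization, with OGD/R left of control. Bars are means and SDs over spots of 1 array. The OGD/R spots lie above the control spots in all panels.

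The signals before dye normalization show what was read from the spots. The Sup signal of Gpi1, background-subtracted, averaged 4386 ± 126 in OGD/R and 8417 ± 393 in control. Its IP signal averaged 19811 ± 944 in OGD/R and 19601 ± 1015 in control, which is within the spread of the spots. Acaa2 had a Sup signal of 529.9 ± 28.9 in OGD/R and 951 ± 22.2 in control, and an IP signal of 1143 ± 30.9 in OGD/R and 1020 ± 12.3 in control (SD over spots throughout). The lower Sup signal was therefore present before any dye correction. Dye normalization then multiplied the Gpi1 Sup spots by 34.8 on the OGD/R array and by 41.3 on the control array, and the IP spots by 23.4 and by 21.8. These factors enlarged the Gpi1 difference. For Acaa2 the Sup factors were 21.1 in OGD/R and 22.7 in control, and the IP factors 38.9 and 38.1, which differ less.

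Without the dye step, and centred in the same way, the ratio difference was 0.91 for Gpi1 and 0.96 for Acaa2. Both then fell just short of 2-fold. With the local background subtracted from the spot medians, also without the dye step, it was 0.93 for Gpi1 and 0.95 for Acaa2. With normexp background correction of the spot medians, which also leaves out the dye step, it was 0.93 for Gpi1 and 0.91 for Acaa2, and with loess added 0.66 and 0.78. Centred on the spike-in probes, Gpi1 stayed past 2-fold at 1.12 and Acaa2 did not, at 0.97. The direction was the same under all 14 alternatives run, with the number past 2-fold given above. Which gene had the larger difference also changed. The gap of Gpi1 over Acaa2 was 0.15 as reported, but Acaa2 had the larger one under 3 alternatives, including -0.054 without the dye step and -0.12 with normexp and loess. An order of the 2 genes by size is therefore not given.

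**Figure D3:**
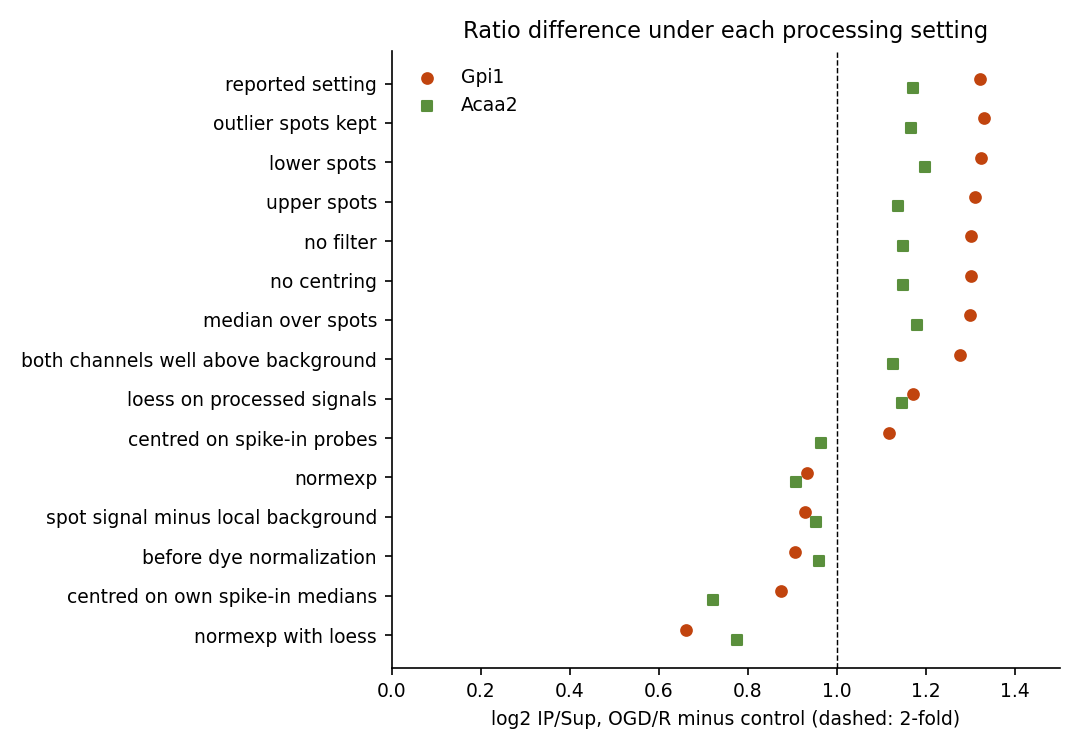
Difference in log2 IP/Sup, OGD/R minus control, for Gpi1 (circles) and Acaa2 (squares) under the reported setting (top) and 14 alternatives. The dashed line marks 2-fold. All points lie above 0, between 0.66 and 1.33, and those with normexp (with or without loess), before dye normalization, with spot signal minus local background or centred on each array's own spike-in median fall left of the line, as does Acaa2 centred on the spike-in probes.

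Set against the other genes on the arrays, both lay toward the high end without standing apart. Of these 34 gene probes, 4 had a larger ratio difference than Gpi1 and 8 a larger one than Acaa2. The 4 were Apoe, E2f1, Gsdmd and Gm9789, which are named because the count is small and after their values were seen. The median of the 34 was 0.65, against 0.048 for the 4875 small-RNA probes with all channels measured. Among those small-RNA probes 9 had a larger ratio difference than Gpi1 and 16 than Acaa2. The spots of the arrays did not overlap in the ratio for 82.4% of the 34 gene probes, so non-overlap in Gpi1 and Acaa2 is what most gene probes showed. Spike-in probes moved the same way in 25 of 36 cases, with a median ratio difference of 0.20 and a range from -0.59 to 2.10. Centring on the median of their differences gave the 1.12 and 0.97 above, and centring each array on its own spike-in median gave 0.87 for Gpi1 and 0.72 for Acaa2, both short of 2-fold.

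By channel, 9 of the 34 gene probes had a lower Sup difference than Gpi1 and 14 a lower one than Acaa2, with a median of -0.53. At least 2-fold lower Sup signal in OGD/R was seen in 38.2% of the gene probes measured in Sup and in 1.69% of all RNAs measured in it. Gpi1 was among them and Acaa2 was not. Under the 12 alternatives run for Sup, Gpi1 stayed at least 2-fold lower in 7 and Acaa2 reached it in 0. The scaled IP difference was higher than that of Gpi1 in 11 of the 34 and higher than that of Acaa2 in 8, with a median of -0.032. With normexp and loess the IP difference of Gpi1 was -0.10 and that of Acaa2 0.10. The sign of the small Gpi1 difference in IP thus turned with the processing, while its Sup difference stayed negative under all 12 alternatives run, from -1.18 to -0.79. That of Acaa2 did so too, from -0.95 to -0.57.

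**Figure D4:**
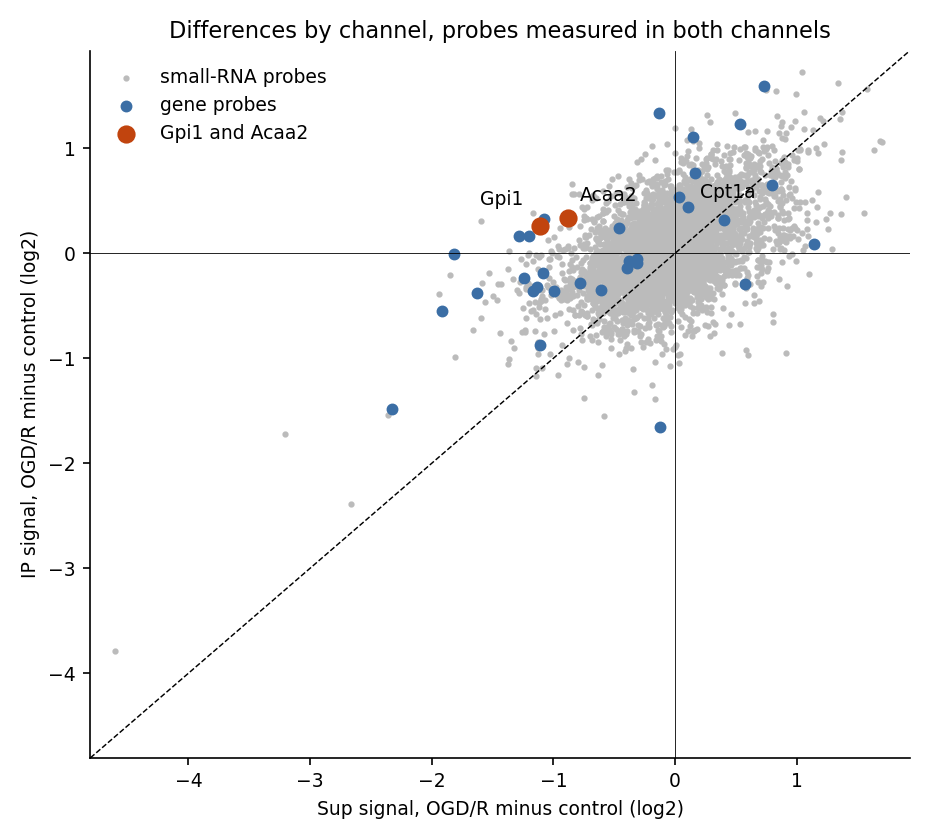
Scaled difference in Sup (x axis) and IP signal (y axis), OGD/R minus control in log2 units, for the 4909 RNAs with all channels of both arrays measured. Points above the dashed diagonal, where the channels differ equally, have the IP difference above the Sup difference. Gpi1 and Acaa2 lie in the left tail of the small-RNA probes, of which 62 had a lower Sup difference than Gpi1 and 122 a lower one than Acaa2, and above 0 on the y axis.

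The gene probes most like Gpi1 in the pair of channel differences were Gm9789, Tm9sf1 and Gsdmd, at distances of 0.079, 0.13 and 0.19 in log2 units, among 32 candidates with a symbol and a median distance of 0.84. Gsdmd encodes the pore-forming protein of pyroptosis and Tm9sf1 a membrane protein of the secretory and endosomal system. For Acaa2 the nearest were Gm9789 at 0.20, Gpi1 at 0.24 and Tm9sf1 at 0.37. For Gm9789 the IP signal differed by 0.33 and the Sup signal by -1.08, and for Tm9sf1 by 0.16 and -1.20. The ratio difference of Gm9789 had a spot SD of 0.18, against its distance of 0.079 from Gpi1, so the order of the nearest probes is not read. Its summed signal differed by 0.042, against -0.24 for Gpi1. The likeness rests on 2 arrays with 2 channels each, so it is a description of these arrays.

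The summed signal of IP and Sup, scaled between arrays, differed by far less than 2-fold. For Gpi1 the difference was -0.24 (spot SD 0.05), and it was negative at 9 of 9 positions. For Acaa2 it was -0.033 (spot SD 0.034), within the scatter of the spots, with 7 of 8 positions below 0. Among the 34 gene probes measured in both channels the median was -0.22. Of them, 19 had a higher difference than Gpi1 and 14 a lower one, against 11 and 22 for Acaa2. Scaled on the spike-in probes the values were -0.15 for Gpi1 and 0.057 for Acaa2, so the sign for Acaa2 depends on the scale. Scaled on the other RNAs, the -0.24 and -0.033 are relative to them and give no amount of RNA per cell. The sum also moves with the labelling of each channel.

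Other genes of the same pathways were few. The 6 lists of energy metabolism and hypoxia genes held 105 genes, of which 4 were on the arrays, namely Gpi1, Acaa2, Cpt1a and Ppara. Of the 25 glycolysis and transport genes Gpi1 was the 1 measured, and of the 24 beta-oxidation genes 3 were on the arrays and 2 measured in both channels. The citric acid cycle, respiratory chain, pentose phosphate and hypoxia lists had 0 genes on the arrays.

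Cpt1a encodes carnitine palmitoyltransferase 1A, which commits long-chain fatty acids to entry into mitochondria, upstream of Acaa2. Its log2 Sup signal had a lowest, median and highest spot of 10.80, 10.92 and 10.93 in OGD/R, against 10.79, 10.86 and 10.94 in control. Before scaling between arrays, the Sup spots of Cpt1a overlapped fully. Its log2 IP signal ran from 14.74 through a median of 14.80 to 14.81 in OGD/R, against 14.46, 14.49 and 14.53 in control. The ratio difference was 0.29 (spot SD 0.07), with 0.44 in IP and 0.10 in Sup. Its IP share was 93.7% in OGD/R and 92.5% in control. In Cpt1a the unscaled IP spots of the arrays lay apart and the unscaled Sup spots did not, whereas in Acaa2 both did. With 1 array per group this contrast was not tested, and such gaps were not counted over the other gene probes. Ppara, which encodes a nuclear receptor that drives beta-oxidation genes, was not well above background in any retained spot of either channel, so no difference is given for it.

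Both arrays had 15742 spots and 0 saturated ones. The median processed signal of negative control spots was 31.0 in IP and 27.5 in Sup in OGD/R, against 31.7 and 28.8 in control, far below the signals of both genes. Of 14 microglia marker genes, Apoe was on the arrays and its spots were well above background in both channels. Of 16 markers of other brain cells, Mbp was on the arrays, with 10 of 10 spots well above background in IP and 0 of 10 in Sup on each array. Astrocytes also express Apoe, so these markers do not check the identity of the cells.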

How the data were processed

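The data were 2 two-colour Agilent arrays, 1 per group, read with Feature Extraction 11.0.1.1. Per the file headers, the deposited processed intensity of each spot was background-subtracted, spatially detrended and dye-normalized within the array (linear and lowess). The background-subtracted intensity before the dye step and the median intensities of spot and local background were also deposited. The deposited log10 ratio was not used, nor were the 4 columns of the authors' table of small-RNA probes, which holds 0 of the 2 genes.

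Control spots and spots marked as outliers were left out, and spike-in probes, taken from their identifiers, were kept apart. Log2 values were averaged over the repeat spots of a probe. The scanner's flag for signal well above background had to be set in at least 50% of them. Each array's log2 IP/Sup was centred on its median over RNAs with that flag in 1 or both channels on each array, with no loess. Scaling used the 75th percentile, for IP over probes detected on both arrays, for Sup over all RNAs and for the sum over the RNAs used for centring. The SD of a difference is the root of the summed spot variances. With 1 array per group no p-value was computed, the threshold is 2-fold, and the number of arrays limits the precision. Normexp (offset 50) and loess came from limma 3.58.1 in R 4.3.3, on median signals. The rest used Python 3.11.15 with pandas 2.3.3 and was tested on simulated data.

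Symbols came from a RefSeq table (GRCm38.p6) by accession, which named 46 of the 50 gene probes. The file headers name another build, so no coordinates are given, and probe sequences were not used here. The 2 genes, the lists and the rule for named genes (both members, the 3 nearest gene probes by channel differences, and list genes) were chosen with earlier results of these data known.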

Additional observations from a re-analysis of the deposited data

How the results depend on the processing

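Both ratio differences kept their direction under the 14 alternatives run, of which 2 per gene were added after the data were seen (before the dye step, and each array centred on its own spike-in median). Those that moved by more than the spot SD, Gpi1 before Acaa2, were 0.93 and 0.91 with normexp, 0.66 and 0.78 when loess followed it, 0.93 and 0.95 with spot signal minus local background, 0.91 and 0.96 before dye normalization, 1.12 and 0.97 centred on spike-in probes, 0.87 and 0.72 centred on own spike-in medians, and, for Gpi1, 1.17 with loess on processed signals. The total difference of Gpi1 was -0.19 with normexp, -0.17 with spot signal minus background, -0.16 before dye normalization, -0.15 scaled on spike-in probes and -0.33 with no scaling. That of Acaa2 was -0.20, -0.20, -0.18, 0.057 and -0.12 in the same settings, and -0.16 with normexp and loess. The cause was not tested. No paired analysis was possible because each group has 1 array.

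Counts of RNAs past 2-fold in the ratio were 319 higher and 446 lower as reported. Normexp gave 10 and 5, loess after it 7 and 8, the requirement of signal in both channels 51 and 55, and no filter 1067 and 1290. Requiring signal in both channels also took the centring median over those RNAs alone, so its 51 differs from the 66 behind the 1.34% above. Centred on spike-in probes they were 195 and 666. At 1.5-fold they were 901 and 1032, and at 3-fold 79 and 133. For the total they were 93 higher and 63 lower as reported, 8 and 14 with normexp, also when loess followed, 36 and 39 where signal was required in both channels, 359 and 302 with no filter, 140 and 37 scaled on spike-in probes, 582 and 360 at 1.5-fold and 6 and 11 at 3-fold. With 1 array per group, a difference between the cells and one between the arrays cannot be told apart.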
